A study of Mus musculus with 2 samples.

Results

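Astrocytes and oligodendrocyte precursor cells (OPCs) are separate glial types that both descend from radial glia, and the 500 regions described here are those that were more accessible in both of them than in neurons and in tanycytes. They were taken from 107377 regions measured by single-cell ATAC-seq, in which the Tn5 transposase cuts open chromatin. The unit of the data is the detection, 1 region scored as open in 1 cell. In each library the detections of a region were summed over the cells of a class and expressed per 1000000 detections of that class, and 5 was added before taking log2. The score of a region in a library was the lower log2 level of astrocytes and OPCs minus the higher log2 level of neurons and of all tanycytes pooled. The smaller score of the 2 libraries ranked the regions, and the 500 highest were the members. They were thus chosen by the levels of astrocytes, OPCs, neurons and pooled tanycytes in both libraries.

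Tissue was the mediobasal hypothalamus at postnatal day 8, from which mouse cells with GFP were sorted. Control mice carried Rax-CreER and CAG-lsl-Sun1-GFP. The Nfia/b/x-deficient mice carried these and also Nfialox/lox, Nfiblox/lox and Nfixlox/lox. Each genotype had 1 library, so every difference between genotypes also is a difference between 2 libraries, and variation between animals could not be measured. Rax-CreER acts in tanycytes, glia of the floor and walls of the third ventricle with long processes, and the GFP mark stays in their progeny, so astrocytes and OPCs here are GFP-positive cells of those classes. How many animals each library pooled is not given in the labels.

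Astrocytes support neurons and regulate the fluid around them, and OPCs divide and give rise to myelinating oligodendrocytes. The transcription factors NFIA, NFIB and NFIX are known for their part in turning neural progenitors toward a glial fate. Accessible regions outside promoters often are enhancers, and a region open in several related types can be part of a program they have in common. The regions carry row numbers only. The files do not pair them with genes or positions, so no gene, sequence or motif is given, and the class names, which are the authors' own, could not be checked against markers.

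The control library held 325 astrocytes with 1755428 detections and 304 OPCs with 1278788. The Nfia/b/x-deficient library held 223 astrocytes with 1130556 detections and 274 OPCs with 1110112. Median detections per cell were 4742 and 4615 in astrocytes and 3380 and 3432 in OPCs, in the control and the deficient library in that order. In ependymal cells they were 6036 and 4172, and the share of cells with a region depends on this depth. All tanycytes together numbered 7304 and 10055 cells and neurons 882 and 2520. Of the cell barcodes, 204 occurred in both libraries. Intervals are exact 95% intervals for counting error only: Poisson for sums, Clopper-Pearson for shares of cells and conditional binomial for ratios. Cells of 1 library are not replicates, and the intervals leave out variation between cells.

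The members took about 1 in 100 detections of an astrocyte or OPC and a much smaller part in every other class. In control astrocytes they took 10.1 of every 1000 detections (interval 9.99 to 10.3) and in control OPCs 11.5 (11.3 to 11.6). Deficient astrocytes had 8.91 (8.73 to 9.08) and deficient OPCs 10.1 (9.95 to 10.3). Control neurons had 2.86 (2.80 to 2.91) and deficient neurons 2.67 (2.64 to 2.70). All tanycytes had 3.25 (3.23 to 3.27) in the control library against 2.60 (2.58 to 2.61) in the deficient one. These 4 classes chose the members, so their order is a description. In both libraries the OPC value was the highest of all classes and the astrocyte value was next.

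**Figure D1:**
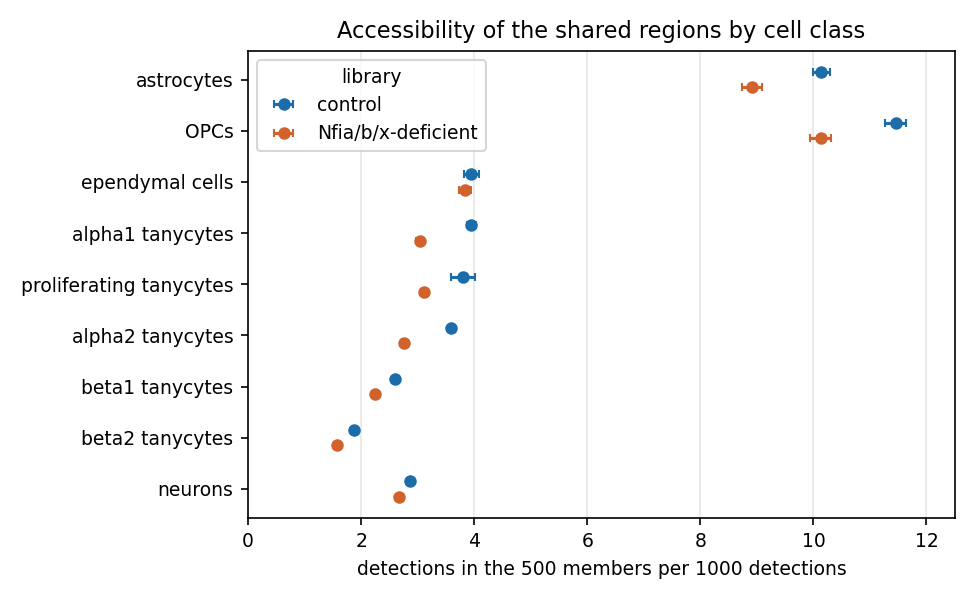
Share of detections that fell in the 500 members (x axis, per 1000 detections) in each of 9 cell classes (y axis), with points for the control and the Nfia/b/x-deficient library and bars for exact Poisson intervals. Astrocytes and OPCs lie between 8.91 and 11.5, and every other class lies at 3.95 or lower.

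The median member was found in 9.23% of control astrocytes and 8.22% of control OPCs, against 1.70% of control neurons and 2.70% of control tanycytes. The deficient medians were 7.62% of astrocytes, 6.57% of OPCs, 1.31% of neurons and 1.63% of tanycytes. The range over members was wide, from 2.15 to 46.8% of control astrocytes and from 1.97 to 38.8% of control OPCs. The members were not rare regions: they were found in 108 to 5426 of all cells (median 515), beside 81 to 18294 for all regions (median 496). The members were thus found in about as many cells as regions at large.

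The member with the highest score was region 98613. It was found in 67 of 325 control astrocytes (20.6%, 16.4 to 25.4%) and in 46 of 304 control OPCs (15.1%, 11.3 to 19.7%). Among deficient cells it was in 38 of 223 astrocytes (17.0%) and 49 of 274 OPCs (17.9%). Of neurons, 6 of 882 control neurons (0.680%) and 27 of 2520 deficient neurons (1.07%) had it, and all tanycytes had it in 2.35% and 1.97% of cells. This region was thus similarly open in both glial classes and both libraries, with overlapping intervals.

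Region 41111 ranked next, and it was less open in the deficient library. It was found in 20.6% of control astrocytes and 20.4% of control OPCs, and in 9.87% (6.29 to 14.6%) and 14.6% (10.6 to 19.3%) of the deficient ones. The intervals of the 2 libraries overlapped in OPCs and not in astrocytes (16.4 to 25.4% in the control). Region 76313 came after it, with 20.9% of control astrocytes and 20.4% of control OPCs, and 16.6% and 19.0% in the deficient library. It was also present in 12.8% of control and 6.79% of deficient ependymal cells, which carry cilia and border the ventricle.

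At the threshold the members were far weaker. The last members were regions 65763 and 44350, with scores of 0.6038 and 0.6036, and the first regions left out were 30092 and 20541, with 0.6035 and 0.6033. Region 65763 was found in 30 control astrocytes and 6 control OPCs. Region 20541, just outside, was found in 39 control astrocytes and 19 control OPCs. The median score of members was 0.76 and the highest 2.09. A score of 1 or more in both libraries, a glial level at least 2-fold above neurons and tanycytes, was reached by 88 members. They are the only regions that reached it (0.082% of all regions), because any such score lies above the threshold for members.

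Whether such regions are shared in a library that did not choose them was asked by ranking in 1 library and measuring in the other. Of the 500 regions with the highest control score, 464 had a score above 0 in the deficient library, where 17.9% of all regions did. Their median score there was 0.67 (quartiles 0.35 and 0.98), down from 1.00 in the library that chose them, and the median of all regions was -0.31. A score of 1 or more in the deficient library was found for 119 of them, beside 0.251% of all regions. There they took 7.91 of every 1000 detections in astrocytes and 9.50 in OPCs, against 3.07 in neurons and 2.59 in tanycytes.

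The reverse choice was measured in the same way. Of the 500 regions chosen in the deficient library, 454 had a score above 0 in the control library (17.6% of all regions), with a median of 0.62. In the control library they took 9.99 per 1000 in astrocytes, 11.7 in OPCs, 4.01 in neurons and 4.13 in tanycytes. The 2 single-library choices shared 173 regions, 34.6% of each list. Both lists were high in astrocytes and OPCs in the library that had not chosen them, and about 1 region in 3 was common to them.

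**Figure D2:**
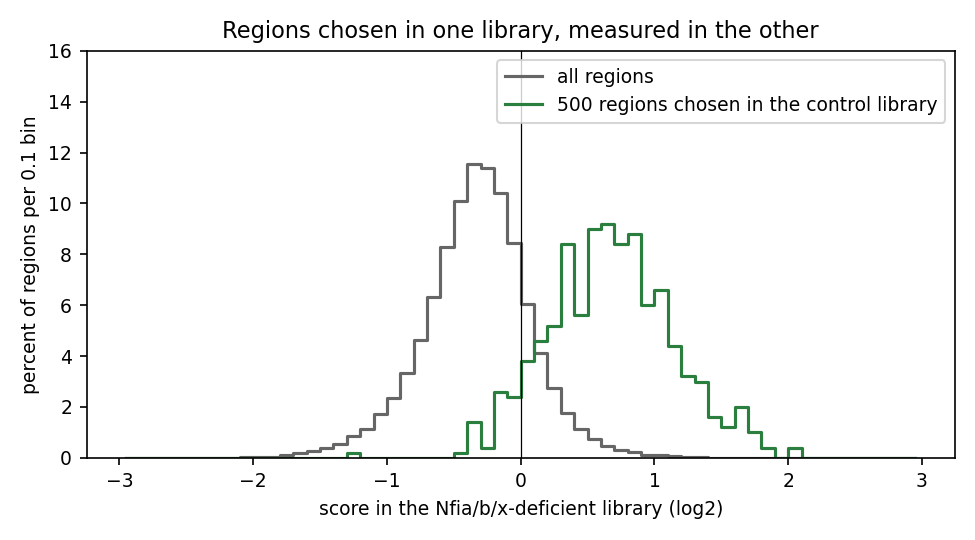
Distribution of the score in the Nfia/b/x-deficient library (x axis, log2; y axis, percent of regions per bin) for all 107377 regions and for the 500 regions chosen in the control library alone. The chosen regions have a median of 0.67 and all regions a median of -0.31.

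Members made up less of the strongest OPC regions than of the strongest astrocyte regions. Among the 500 regions with the highest astrocyte score when OPCs were left out of the rule, 221 were members (44.2% of each list). Among the 500 with the highest OPC score when astrocytes were left out, 168 were members (33.6% of each list). Those lists for astrocytes and for OPCs shared 89 regions, 17.8% of each.

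Single members leaned more often to OPCs than to astrocytes. The level was higher in OPCs in both libraries for 242 members, where 27.8% of all regions were, and higher in astrocytes in both for 112 members, where 29.2% of all regions were. The other 146 members leaned to different classes in the 2 libraries, as 42.9% of all regions did. The median log2 ratio of astrocyte over OPC level was -0.12 in the control library against -0.088 in the deficient one, with quartiles of -0.36 and 0.12 and of -0.39 and 0.15. The lean of a member was related between the libraries (Pearson r = 0.58 across the 500 members and 0.36 across all regions; regions are not independent replicates).

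**Figure D3:**
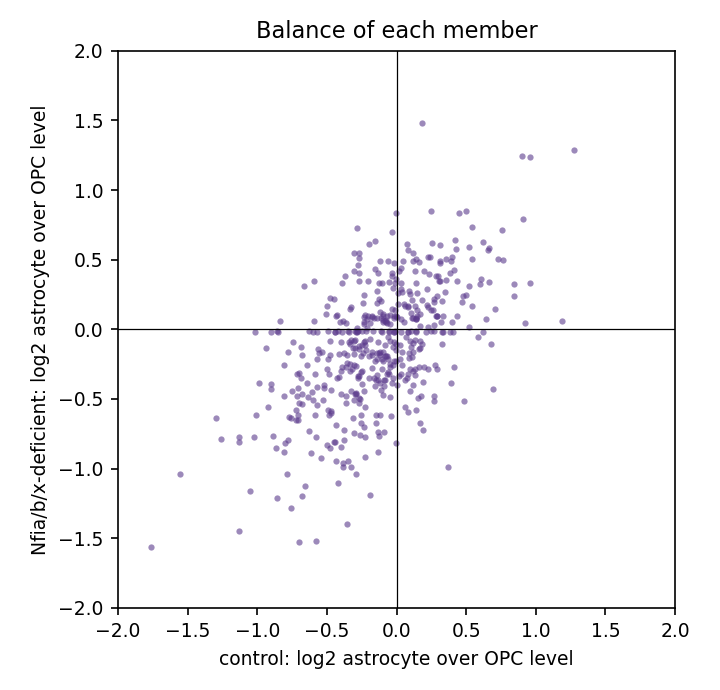
Log2 ratio of astrocyte over OPC level of each of the 500 members in the control (x axis) and the Nfia/b/x-deficient library (y axis), 1 point a member, with 5 per 1000000 added to each level. Most points lie within 1 unit of 0 on both axes, and 242 members lie below 0 on both against 112 above 0 on both.

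Strong leans were rare in members and in all regions. A lean of 1.5-fold or more in both libraries was seen for 28 members toward OPCs (5.6%, beside 2.73% of all regions). It was seen for 6 toward astrocytes (1.2%, beside 2.14% of all regions). At 2-fold the counts were 4 toward OPCs (0.8%, beside 0.643% of all regions) and 1 toward astrocytes (0.2%, beside 0.197% of all regions). The 2-fold shares were thus near those of all regions, and the 1.5-fold lean to OPCs was more frequent in members. The strongest toward OPCs was region 20366, found in 77 of 304 control OPCs (25.3%) and 25 of 325 control astrocytes (7.69%), and in 13.5% of deficient OPCs and 4.04% of deficient astrocytes. The strongest toward astrocytes was region 98789, found in 12.0% of control and 12.6% of deficient astrocytes and in 2.63% and 2.92% of OPCs. In region 98789 the intervals of astrocytes (8.67 to 16.04% and 8.51 to 17.6%) and OPCs (1.14 to 5.12% and 1.27 to 5.67%) did not overlap in either library. Region 98789 was also found in 9.02% of control and 6.79% of deficient ependymal cells, whereas region 20366 was found there in 1.504% and 0.755%.

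Ependymal cells are the only class that the rule left out. The members took 3.95 of every 1000 detections (3.83 to 4.08) in control and 3.83 (3.72 to 3.94) in deficient ependymal cells, far below astrocytes and OPCs and above the tanycyte pool. The log2 ratio of ependymal over tanycyte level was 0.28 (0.23 to 0.33) in the control library against 0.56 (0.52 to 0.60) in the deficient one, but tanycytes had been required to be low. When ependymal cells also had to be low, the 500 regions shared 325 with the members, and their ratio was -0.11 in the control library against 0.058 in the deficient one. Over single members the median ependymal level was 6.39 per 1000000 in the control, where the median of all regions was 4.26, and 5.64 in the deficient library, where it was 4.84.

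Few members were as open in ependymal cells as in astrocytes and OPCs. The ependymal level reached the lower of astrocytes and OPCs in both libraries for 10 members, where 48.9% of all regions did; the glial side of this count was chosen high. It was 2-fold or more above tanycytes in both libraries for 6 members (0.31% of all regions) and 2-fold or more below them for 0 (0.0261% of all regions). Region 30931 had the highest ependymal level relative to the glial classes. It was found in 27 of 133 control ependymal cells (20.3%, 13.8 to 28.1%) and 17 of 265 deficient ones (6.42%, 3.78 to 10.1%), beside 9.85% and 5.38% of astrocytes. Region 30414 followed, with 9.02% of control and 8.30% of deficient ependymal cells and 6.46% and 8.97% of astrocytes. With this number of ependymal cells, 27 members had no detection there in the control library against 18 in the deficient one.

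Within tanycytes the members were most open in alpha1 and proliferating cells and least open in beta2 cells, in both libraries. Alpha tanycytes line the upper part of the ventricle wall and beta tanycytes its lower part and floor. The rule used tanycytes only as a pool, so it set the level of the pool and did not directly set the order of its subtypes. Alpha2 cells gave 28371961 of 43238081 control and 26067852 of 48357247 deficient tanycyte detections. A low pool thus bore most on the alpha2 level, and the order of the subtypes is not independent of the rule. In the control library the members took 3.95 per 1000 in alpha1, 3.80 in proliferating, 3.59 in alpha2, 2.60 in beta1 and 1.88 in beta2 tanycytes. The deficient values were 3.03, 3.11, 2.76, 2.24 and 1.57. The intervals of neighbours in this order overlapped only between alpha1 (3.87 to 4.03 control, 2.97 to 3.097 deficient) and proliferating tanycytes (3.59 to 4.02 and 3.06 to 3.16), and in the control also between proliferating and alpha2 tanycytes (3.57 to 3.61). The control library had 63 proliferating tanycytes. Beta2 cells were also the lowest tanycyte class for the regions of astrocytes alone (1.75 control, 1.497 deficient), of OPCs alone (1.55 and 1.58) and of neurons with OPCs (1.63 and 2.16), so this is not particular to the members.

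Single members were compared between pairs of the 4 non-proliferating subtypes. The alpha1 level was above the beta2 level in both libraries for 369 members (37.5% of all regions) and below it in both for 42 (36.6% of all regions). The difference reached 2-fold in both for 38 members in favour of alpha1 (1.88% of all regions) and for 0 in favour of beta2 (1.54% of all regions). The alpha2 level was above the beta2 level for 403 members (45.8% of all regions) and below it for 48 (32.9% of all regions). Between beta1 and beta2 cells the counts were 316 (40% of all regions) and 65 (34.1% of all regions), and between alpha2 and beta1 cells 326 (40.1% of all regions) and 59 (30.4% of all regions). The 2 alpha subtypes were closer: 180 members were higher in alpha1 (25.7% of all regions) and 136 in alpha2 cells (38.6% of all regions). In all 5 pairs more members followed the order of the summed levels than went against it. Beta2 cells had the lowest level of the 4 non-proliferating subtypes in both libraries for 284 members (26% of all regions). Alpha1 cells had the highest for 145 (14.7% of all regions), alpha2 cells for 98 (10.8% of all regions), beta2 cells for 26 (21.5% of all regions) and beta1 cells for 16 (7.3% of all regions). The log2 ratio of summed alpha1 over beta2 levels was 1.07 (1.03 to 1.11) in the control library against 0.95 (0.90 to 0.99) in the deficient one. Regions of astrocytes alone took 3.585 per 1000 in control alpha1 and 1.749 in control beta2 cells, and 2.826 and 1.497 in deficient ones. Regions of OPCs alone and of neurons with OPCs also were higher in alpha1 than in beta2 cells in both libraries, with a smaller gap. An excess of alpha1 over beta2 cells is thus not particular to the members.

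**Figure D4:**
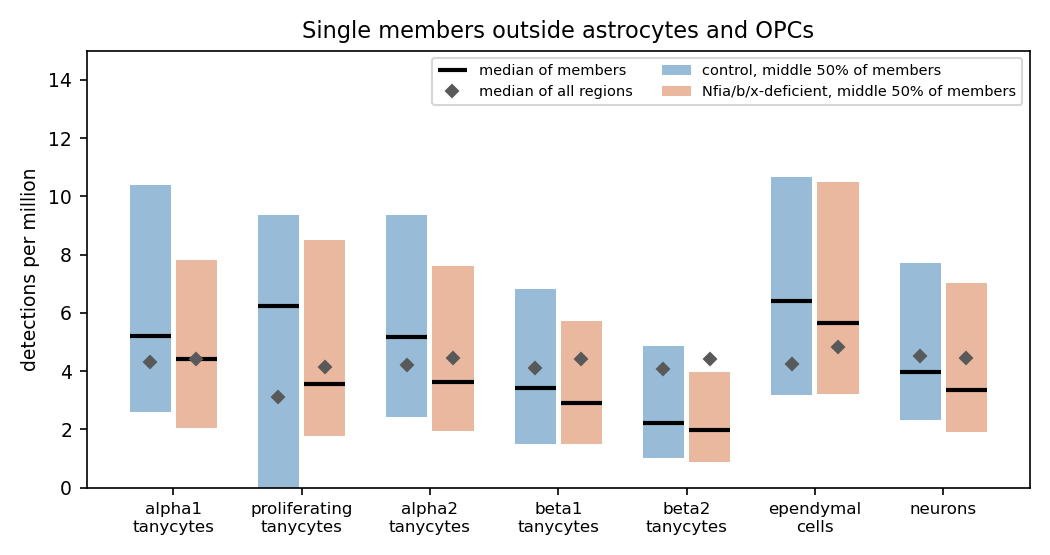
Level of single members (y axis, detections per 1000000) in the 5 tanycyte classes, ependymal cells and neurons of both libraries (x axis). Bars span the lower to the upper quartile of the 500 members, black lines mark their median and diamonds the median of all regions; in beta2 tanycytes the median member (2.24 and 1.99) lies below the median region (4.07 and 4.42).

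The rule was also run with the highest tanycyte class in place of the pool. Its 500 regions shared 330 with the members, and the log2 ratio of their alpha1 over beta2 levels was 0.80 in the control library against 0.72 in the deficient one. Alpha1 cells were thus above beta2 cells under this choice as well.

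The members took a smaller share of detections in the deficient than in the control library in astrocytes, OPCs and tanycytes. In astrocytes the log2 ratio of deficient over control share was -0.19 (-0.22 to -0.15) and in OPCs -0.18 (-0.21 to -0.14). Of the 500 members, 331 were lower in deficient astrocytes (48.2% of all regions), 324 in deficient OPCs (47.5% of all regions) and 341 with both classes pooled (48% of all regions). The median over members was -0.12 in astrocytes and -0.14 in OPCs, and the median over all regions was 0.013 and 0.020. Each of these compares 1 library with 1 library and has no replicate check.

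In all tanycytes the ratio was -0.32 (-0.33 to -0.31). It was -0.38 in both alpha1 (-0.42 to -0.34) and alpha2 tanycytes (-0.39 to -0.37), -0.21 in beta1 and -0.26 in beta2 tanycytes and -0.29 (-0.38 to -0.21) in proliferating tanycytes. Of the members, 355 were lower in deficient tanycytes (40.4% of all regions), with a median of -0.11 beside 0.042 for all regions. By subtype, 328 members were lower in deficient alpha1 (45.1% of all regions), 376 in alpha2 (41.8%), 290 in beta1 (42.5%), 283 in beta2 (44.1%) and 256 in proliferating tanycytes (42.2%). In neurons the ratio was -0.099 (-0.13 to -0.066), and in ependymal cells the interval included 0 (-0.045, -0.11 to 0.018). Of the members, 275 were lower in deficient neurons (46.3% of all regions) and 259 in deficient ependymal cells (46.9% of all regions).

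How far the shares differed depended on which library chose the regions. For regions chosen in the control library alone the ratio was -0.31 in astrocytes and -0.066 in all tanycytes. For regions chosen in the deficient library alone it was -0.074 in astrocytes and -0.71 in all tanycytes. The rule asks for a high glial and a low tanycyte level in the library that chooses. In OPCs the ratio was within -0.21 and -0.16 under these 2 choices. In neurons it was 0.32 with the control choice and -0.76 with the deficient choice, so the sign in neurons turned with the choice. With the control choice it also turned in beta2 (0.034) and proliferating tanycytes (0.12) and was -0.00053 in beta1 tanycytes. With the highest tanycyte class in the rule it was 0.011 in proliferating tanycytes. The direction held under these choices in alpha1 and alpha2 tanycytes.

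**Figure D5:**
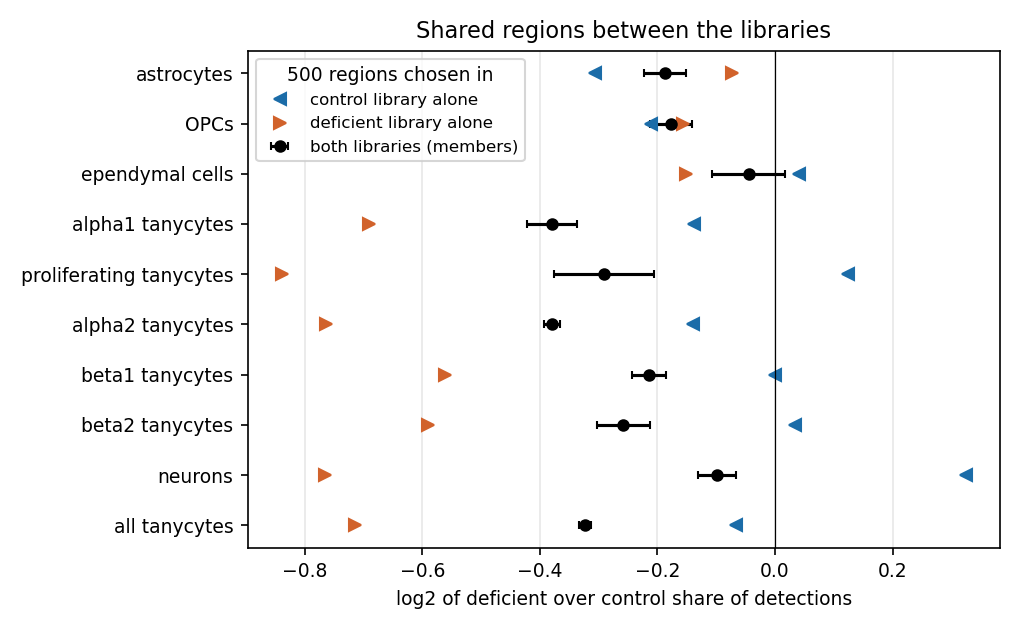
Log2 ratio of deficient over control share of detections (x axis) in each cell class and in all tanycytes (y axis), for the 500 members with exact conditional binomial intervals and for 500 regions chosen in the control or the deficient library alone. In astrocytes, OPCs, alpha1 and alpha2 tanycytes all 3 choices lie below 0, while in neurons they run from -0.76 to 0.32.

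In the glial classes few single members and few regions at large differed by 2-fold between the libraries. With astrocytes and OPCs pooled, 430 members had at least 50 detections over both libraries. With 1 per 1000000 added to each level, 8 of them were 2-fold or more lower in the deficient library (1.07% of all regions with as many detections) and 1 was higher (0.403%). With at least 200 detections none was past 2-fold in either direction, and with 5 per 1000000 added 2 were lower and 0 higher. The number of members with at least 200 detections and the shares of all regions at these settings are not given here. These counts thus cannot be set against all regions. In astrocytes alone 4 of 226 were lower (0.517%) and 0 higher (0.119%), and in OPCs alone 1 of 201 was lower (0.782%) and 0 higher (0.32%). Ependymal cells had 21 members with enough detections, 0 of them lower (0.216%) or higher (0.191%). In OPCs the share of members past 2-fold was thus not above that of all regions. In astrocytes and in the pooled classes the share that was lower was above it, on 4 and 8 members. In all tanycytes 499 members had enough detections, and 32 were lower (2.46%) and 1 higher (0.999%). In alpha2 tanycytes 40 of 483 were lower (2.97%) and 1 higher (1.15%), and in alpha1 tanycytes 18 of 115 were lower (3.51%) and 0 higher (1.39%). The counts were 15 lower (2.32%) and 0 higher (1.6%) of 264 in beta1, 9 lower (2.87%) and 0 higher (1.04%) of 104 in beta2, and 11 lower (3.89%) and 17 higher (13%) of 111 in proliferating tanycytes. In neurons 21 of 250 were lower (5.61%) and 15 higher (6.03%). In neurons the share of members that were higher was thus near that of all regions. The share that was lower was above that of all regions in neurons, in all tanycytes and in each tanycyte subtype. The levels of neurons and pooled tanycytes helped to choose the members.

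The member with the lowest ratio in the pooled glial classes was region 40910. It was found in 45 of 325 control astrocytes (13.8%, 10.3 to 18.1%) and 30 of 304 control OPCs (9.87%, 6.76 to 13.8%). In deficient cells it was found in 7 of 223 astrocytes (3.14%, 1.27 to 6.36%) and 7 of 274 OPCs (2.56%, 1.03 to 5.19%), a log2 ratio in the pooled classes of -1.98 (-2.92 to -1.15) with nothing added. It was lower in all 7 other classes of the deficient library as well, with 4.30% of control and 0.686% of deficient tanycytes. Region 20840 had 15.4% and 11.2% of control astrocytes and OPCs and 4.93% and 4.01% of deficient ones, a ratio of -1.495 (-2.24 to -0.80), and was likewise lower in all 7 other classes.

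Region 60287 had the highest ratio. It was found in 12 control astrocytes (3.69%, 1.92 to 6.36%) and 12 control OPCs (3.95%, 2.06 to 6.79%), and in 29 deficient astrocytes (13.0%, 8.88 to 18.1%) and 15 deficient OPCs (5.47%, 3.096 to 8.87%). The pooled ratio was 1.31 (0.56 to 2.09), and the intervals overlapped in OPCs and not in astrocytes. Its level was higher in all 7 other classes, and 2.84% of deficient tanycytes had it beside 1.53% of control ones. Region 2422 was next at 0.92 (0.18 to 1.67), under 2-fold, and was higher in 6 of 7 other classes.

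The share of members was also taken cell by cell. The same cells chose the members, so the values of astrocytes, OPCs, neurons and tanycytes are a description. Cells were thinned to 2000 detections, which left out 37 and 21 astrocytes, 62 and 45 OPCs and 506 and 848 tanycytes of the control and the deficient library. The median cell then had 10.0 member detections per 1000 in control astrocytes (quartiles 8 and 13.0) and 12.0 in control OPCs (8.50 and 15.5). The deficient medians were 9 and 10.0. Tanycytes had medians of 3.00 and 2.50 and neurons 2.00 and 2.50. The lower quartile of all astrocytes and OPCs of both libraries, 7.50 per 1000, was reached by 229 of 288 control astrocytes (79.5%) and 199 of 242 control OPCs (82.2%), and by 67.8% and 75.1% of the deficient ones. About 75% of these cells together reach it by its definition.

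Some cells of other classes reached that level. Among control cells these were 39 of 602 neurons (6.48%, 4.65 to 8.75%), 136 of 4031 alpha2 tanycytes (3.37%, 2.84 to 3.98%), 19 of 439 alpha1 tanycytes (4.33%), 4 of 1413 beta1 tanycytes (0.283%), 3 of 51 proliferating tanycytes (5.88%) and 5 of 131 ependymal cells (3.82%). Among deficient cells they were 15 of 1960 neurons (0.765%, 0.429 to 1.26%), 69 of 4574 alpha2 tanycytes (1.51%, 1.18 to 1.90%), 7 of 617 alpha1 tanycytes (1.13%), 5 of 2133 beta1 tanycytes (0.234%), 3 of 968 proliferating tanycytes (0.310%) and 6 of 235 ependymal cells (2.55%). Beta2 tanycytes had 0 of 864 and 0 of 915, which allows shares of up to 0.426% and 0.402%. These shares describe 2 libraries, and their intervals cover counting error over cells only. Without thinning the level was 8.19 per 1000, reached by 36 of 882 control and 4 of 2520 deficient neurons and by 49 of 4306 control and 23 of 4902 deficient alpha2 tanycytes.

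The order of the glial classes in the control library was not the same at every depth. With cells thinned to 4000 detections, which kept only 122 control OPCs and 197 control astrocytes, the median was 9.50 in OPCs and 9.75 in astrocytes of the control library. With no thinning it was 13.1 and 10.9. Thinning to 4000 changes both the depth and the cells kept, and the gap of the medians there was 1 detection. Deficient OPCs were above deficient astrocytes at each setting, with 9 and 8 at 4000 detections.

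Region sets built in the same way for other classes differed between the libraries by other amounts. In all tanycytes the ratio was -0.36 (-0.38 to -0.35) for 500 regions of astrocytes alone and -0.011 (-0.025 to 0.0023) for 500 regions of OPCs alone, beside -0.32 for the shared members. For 500 regions shared by neurons and OPCs it was 0.44 (0.43 to 0.46), and none of these was a member. In OPCs the regions of OPCs alone had 0.049 (0.015 to 0.084), the regions of astrocytes alone -0.34 (-0.41 to -0.27) and the shared members -0.18. In astrocytes these sets had -0.16 (-0.23 to -0.10), -0.089 (-0.13 to -0.050) and -0.19. Regions shared by neurons and OPCs had 0.245 in OPCs and 0.13 in astrocytes. A lower share in a deficient glial class is thus not particular to the members. In astrocytes the intervals of the members and of the regions of OPCs alone overlapped. The other differences from the members are larger than counting error, and each set was chosen on the same 2 libraries.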

How the data were processed

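Per the labels' protocols, reads went through Cell Ranger ATAC 1.1.0 with default parameters. The submitters' processing notes name build mm10 and Cell Ranger 3.1, Signac 0.2.5, Seurat and MACS2 without roles. No source used here says how regions were called, cells filtered or doublets treated. The authors deposited presence or absence of 107377 regions in 22285 cells (112651747 entries), not fragment counts, and an annotation with 9 classes, 5 of them tanycytes. Cells are unnamed in the matrix and were matched to the annotation by order. As a check, profiles from every other cell assigned the remaining cells to their own class in 63.0% of control and 62.1% of deficient cells, against 12.1% and 11.1% with the annotation shifted by 101 cells.

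The members and lists were chosen with earlier results of these data known. Presence saturates at 1 per cell. With 1 library per genotype no statistical test was possible. Counts of members past 2-fold and the highest and lowest genotype ratios used 1 added per 1000000 and at least 50 detections over both libraries. Counts of members lower in the deficient library, and the medians given with them, used 5 added per 1000000 and no minimum of detections. Named regions are the 3 highest scores, 2 on each side of the threshold, the strongest lean to each glial class, the 2 highest in ependymal cells relative to the glial classes, and the 2 highest and 2 lowest genotype ratios. Comparison sets used the same score with other classes. The calculations were tested on simulated data. Software was matplotlib 3.10.9, pandas 2.3.3, Python 3.11.15, scipy 1.17.1 and numpy 2.4.6.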

Additional observations from a re-analysis of the deposited data

How the results depend on the processing

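The alternatives changed the choice of members, the cells, the scaling, the pseudocount and the minimum; leaving out the 50 members found in the most cells was chosen after seeing the data. No paired analysis was possible because each genotype has 1 library. A value was taken as moved when it left its counting interval, or for counts when it changed by more than 1.5 times. For the median member share per cell the wider band between the quartiles over cells was used. By these rules 168 of 322 alternative values did not move. In each list below values are in the order control, deficient library. The log2 ratio of the lower glial over the higher neuron or tanycyte level (1.64, 1.74) was 1.96 and 2.03 with pseudocount 1 in the rule, 1.44 and 1.60 with 10, 1.87 and 1.94 with 250 members, 1.37 and 1.54 with 1000, 1.85 and 1.36 with members chosen in the control library, 1.27 and 1.91 with members chosen in the deficient library, 1.71 and 1.67 with the highest tanycyte class, 1.47 and 1.53 with ependymal cells low, 1.77 and 1.84 with thinned cells, 1.71 and 1.79 without the deepest 5% of cells, 1.84 and 1.90 without the 50 members, 1.67 (control) with median-of-ratios scaling and 1.70 (deficient) in cells with at least 2000 detections. The ependymal over tanycyte ratio (0.28, 0.56) was, in the same order, 0.43 and 0.76, 0.19 and 0.46, 0.35 and 0.67, 0.21 and 0.50, 0.35 and 0.45, 0.17 and 0.73; it was 0.62 (deficient) with the highest tanycyte class, -0.11 and 0.058 with ependymal cells low, 0.34 (control) in thinned cells, 0.37 (control) without the deepest cells, 0.40 and 0.72 without the 50 members, and 0.33 and 0.66 with median-of-ratios scaling. The alpha1 over beta2 ratio (1.07, 0.95) was 1.13 (control) with pseudocount 1, 0.94 (control) with 10, 1.17 and 1.03 with 250 members, 0.89 and 0.81 with 1000, 1.11 (control) with the control choice, 0.98 and 0.88 with the deficient choice, 0.80 and 0.72 with the highest tanycyte class, 0.91 and 0.83 with ependymal cells low, 1.15 and 1.06 in thinned cells, 1.12 (control) with median-of-ratios scaling and 1.12 (control) without the 50 members.

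The genotype ratio in astrocytes (-0.19) was -0.15 with 1000 members, -0.31 and -0.074 with the control and the deficient choice, and -0.13 with ependymal cells low. In OPCs (-0.18) it was -0.12 with ependymal cells low and -0.21 in thinned cells. In all tanycytes (-0.32) it was -0.37 with 250 members, -0.066 and -0.71 with the control and the deficient choice, -0.25 with ependymal cells low, -0.34 in cells with at least 2000 detections, -0.29 in thinned cells, -0.31 without the deepest cells and -0.34 without the 50 members. The sign turned with the control choice in neurons (0.32), beta2 (0.034) and proliferating tanycytes (0.12), and in proliferating tanycytes also with the highest tanycyte class (0.011); in astrocytes, OPCs, alpha1, alpha2 and all tanycytes it turned under none of the alternatives run. The 1 member 2-fold higher became 2 with pseudocount 1 in the rule, 1000 members or cells of at least 2000 detections, and 0 with pseudocount 10 or 250 members, the control choice, the highest tanycyte class, ependymal cells low, pseudocount 5 in the ratio or a minimum of 200. The 8 members lower became 5 with 250 members or with cells of at least 2000 detections, 16 with 1000 members or the control choice, 2 with the deficient choice or pseudocount 5, 4 with ependymal cells low and 0 with a minimum of 200. Lists of 250 and 1000 members differ in size from the main list, and a higher minimum leaves fewer members to count. Shares of all regions at these settings are not given here, so both sets of counts are a description. Except where the rule itself was changed, the cause of the shifts in this section was not tested. Depth limits single members: many rest on under 20 cells of a glial class.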

Other observations

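Some members were adjacent in the row order of the matrix. What that order means is not stated. Of the 500 members, 35 had another member in a directly adjacent row, and there were 2 runs of 3 or more adjacent members, the longest of 4. Among the 995 rows next to a member, 3.52% were themselves members, while members make up 0.466% of all rows. The same value was 1.72% for regions of astrocytes alone, 1.82% for regions of OPCs alone and 1.81% for regions shared by neurons and OPCs. Whether adjacent rows are adjacent regions was not tested.

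Members that leaned 1.5-fold or more to astrocytes in both libraries were few (1.2%, beside 2.14% of all regions). Among members grouped by lean, their summed tanycyte level differed most between the libraries. The 6 regions together had 3.82 detections per 1000000 per region in control and 2.03 in deficient tanycytes (log2 ratio -0.91, -1.06 to -0.77). The 28 regions that leaned to OPCs had 4.56 and 3.37 (-0.44, -0.49 to -0.38), and the other 466 members had 6.65 and 5.35 (-0.32, -0.33 to -0.30). In neurons the ratios were -0.75 (-1.20 to -0.29), -0.35 (-0.50 to -0.19) and -0.084 (-0.12 to -0.051) in the same order of groups. The tanycyte and neuron levels of both libraries were used to choose the members, and the intervals cover counting error only. The spread over the 6 regions and the ratio of other regions with the same lean were not taken, so this is a description.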
